A study of Mus musculus with 13 samples.

Results

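Of the 8 mice with bile duct ligation (BDL) in a liver RNA sequencing study of 13 mice, 2 were left out of the deposited table that compares the ligated groups with each other. These were mouse 3 of the miR-Ctrl BDL group and mouse 2 of the anti-miR-873-5p BDL group, and they are described here against the 6 ligated mice that the table retained, 3 of each treatment. They had been chosen by the study on the measured expression values themselves, since outliers were filtered after hierarchical clustering and principal component analysis of these same data. The mice were not named, so the pair is recognized by the absence of its columns. Both mice do appear in the tables against mice without BDL. All differences between the excluded and the retained mice are therefore given as a description, with no p-value.

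All animals were male C57 mice of 3 month of age. The 5 no BDL mice had no ligation and no treatment. The ligated mice received 60 µg of either a control hairpin inhibitor (miR-Ctrl) or an inhibitor of miR-873-5p into the tail vein on day 3 and day 5 after BDL, and livers were taken on day 7. No ligated mouse without an injection and no sham-operated mouse was analysed here, so surgery, cholestasis and the injected carrier cannot be told apart in any comparison with no BDL mice. Each library was made from a piece of whole liver, in which fewer cells of a type and less RNA per cell cannot be told apart.

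Ligation of the common bile duct stops bile flow. Bile acids build up in the liver, hepatocytes lower bile acid synthesis and much of their specialized metabolism, cholangiocytes proliferate, leukocytes enter and collagen is laid down. The liver also responds to food intake: in fasting, glucagon, glucocorticoids and PPARα raise genes of fatty acid oxidation, ketogenesis and gluconeogenesis, while insulin-driven genes of lipid synthesis fall. *Gnmt*, glycine N-methyltransferase, consumes S-adenosylmethionine and is the target through which the study examined miR-873-5p. The microRNA that 1 of the 2 excluded mice was injected against is shown because it is the only designed difference between them; its seed, bases 2 to 8, is in capitals. The RefSeq mature sequence (GRCm38.p6, chr4:36668556-36668576, minus strand) has 21 bases.
mmu-miR-873a-5p: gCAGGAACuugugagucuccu

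The excluded livers had the lowest depth of the series, with 12185333 counts in miR-Ctrl mouse 3 and 12857186 in anti-miR-873-5p mouse 2. The retained ligated mice had 13483226 to 15163990 counts. Genes with at least 10 counts numbered 12143 and 12227 in the excluded mice and 12811 to 13417 in the retained mice. The no BDL mice had fewer such genes, 11586 to 12106, at 14610598 to 19689037 counts. Whether depth had a part in the differences below was not tested. All 13 libraries carried the liver transcripts *Alb*, *Apoa1*, *Ttr* and *Trf*, none of which was both outside the retained range and 2-fold from the retained mean in either excluded mouse, and transcripts of the Y chromosome. Of the 19 pancreas markers, 13 had 0 counts in both mice.

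The excluded mice were more like each other than like any other liver, although their treatments differed. Over the 12972 genes that averaged 10 counts or more in ligated mice, Spearman's correlation between the pair was 0.963. The correlation between an excluded and a retained mouse ran from 0.919 to 0.939 over 12 pairs, and between retained mice from 0.966 to 0.987 over 15 pairs, both treatments included. For miR-Ctrl mouse 3 the second nearest liver was miR-Ctrl mouse 2, with a correlation of 0.938, and for anti-miR-873-5p mouse 2 it was anti-miR-873-5p mouse 3, with 0.939. Nearness did not follow treatment beyond that. For miR-Ctrl mouse 3 the correlation was 0.937 with anti-miR-873-5p mouse 3, and 0.926 and 0.928 with miR-Ctrl mice 1 and 4. Such correlations run across genes of single libraries, and genes are not independent replicates. On the first component, which held 53.7% of the variance and separated ligated from no BDL livers, miR-Ctrl mouse 3 scored 0.43 and anti-miR-873-5p mouse 2 scored 0.20, against 0.02 to 0.41 in the retained mice. On the second, with 20.3% of the variance, they scored 0.54 and 0.56 and the other 11 mice -0.23 to 0.04. A retained mouse, anti-miR-873-5p mouse 1, had the lowest first component score of all ligated mice.

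**Figure D1:**
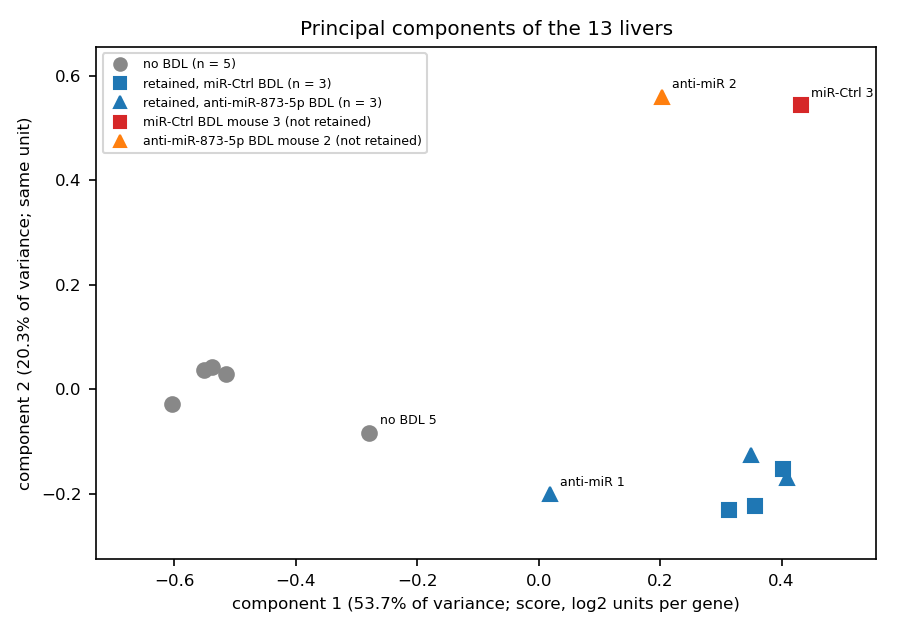
First and second principal components of log2 levels in the 13 livers, 1 point per mouse, with the share of variance on each axis. The 2 excluded mice, at 0.54 and 0.56, sit alone at the top of the second component, while retained anti-miR-873-5p mouse 1, at 0.02, lies nearest to the no BDL mice among ligated mice on the first.

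A gene was counted as outside when its level in the excluded mouse lay beyond all 6 retained mice and at least 2-fold from their mean on the scale of log2(normalized CPM + 0.5), where CPM are counts per 1e6 counts of the TMM-scaled library. By that rule 630 genes were higher (4.86%) and 1289 lower (9.94%) in miR-Ctrl mouse 3. The other excluded mouse had 588 higher (4.53%) and 1397 lower (10.8%). Counts within gene lists below are to be read beside these shares over all genes. Against the same 6 reference mice, 239 genes were higher in both mice (1.84%) and 747 lower in both (5.76%). Opposite directions were rare, with 14 genes higher in miR-Ctrl mouse 3 and lower in anti-miR-873-5p mouse 2, and 1 gene of the reverse kind. That gene was *Izumo4*, at 2.49 and 16.1 normalized CPM against 4.39 to 7.83 in the retained mice. Of the 239 genes higher in both mice, 202 also lay above all 5 no BDL mice, and of the 747 lower in both, 381 lay below all 5. The 2-fold limit itself is arbitrary: *Igf2bp2*, at a log2 difference of 1.00035, was counted as higher in miR-Ctrl mouse 3, and *Mmadhc*, at 0.999804, was not.

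**Figure D2:**
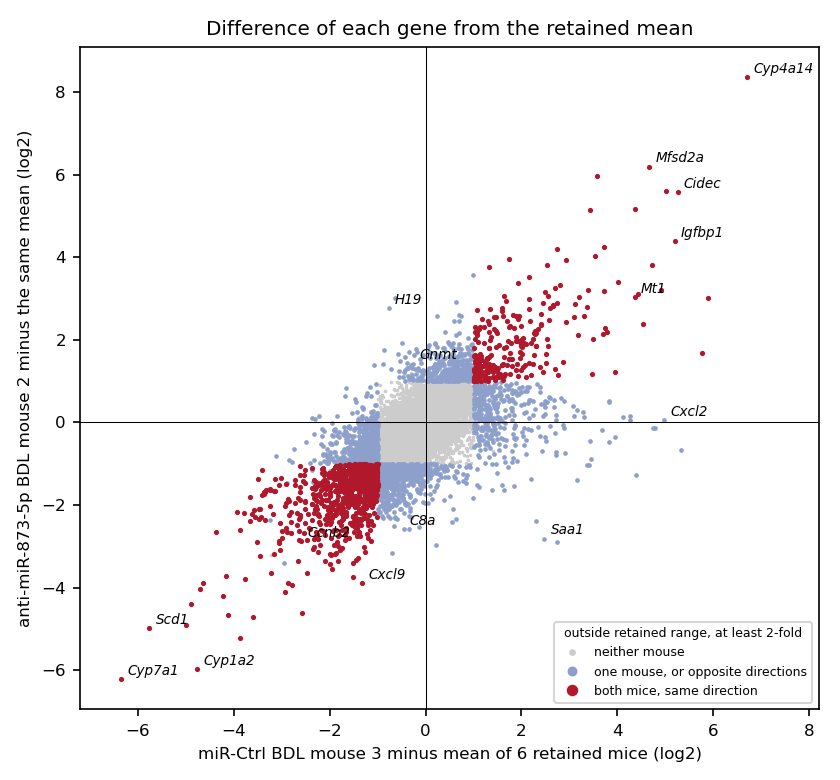
Difference of each of 12972 genes from the mean of the 6 retained mice (log2) in miR-Ctrl BDL mouse 3 (x axis) and anti-miR-873-5p BDL mouse 2 (y axis), with 1 point per gene and the same 6 mice as reference on both axes. The 239 genes at the upper right and the 747 at the lower left were outside the retained range in both mice, from *Cyp4a14* to *Cyp7a1*, while *Saa1* and *Cxcl2* stand apart from the diagonal.

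Genes of fasting and fatty acid oxidation were higher in both excluded livers. *Cyp4a14*, a fatty acid omega-hydroxylase and a classical PPARα target (GRCm38.p6, chr4:115486200-115496158), had 906 normalized CPM in miR-Ctrl mouse 3 and 2857 in anti-miR-873-5p mouse 2. The retained mice had 1.55 to 108 with a median of 4.16, and the no BDL mice 19.4, 5.03, 61.6, 1.7997 and 0.712. Both excluded values exceeded every other mouse, the highest of which had 108. Against the mean log2 level of the retained mice, with 0.5 added, they were 104-fold and 329-fold higher. *Cyp4a10*, its paralog, followed with 250 and 439 against 2.98 to 71.2, although reads may be shared among the near-identical genes of the Cyp4a cluster. *Cidec*, which coats lipid droplets, had 142 and 179 against a narrow 2.43 to 4.67, and 1.14 to 11.3 in no BDL mice. *Cidec* also marks adipose tissue, but *Adipoq*, *Lep*, *Plin1* and *Retn* had 0 counts in both excluded libraries, as did 6 of the 9 adipose markers in all. The summed level of the 9 was 145 and 179 against 2.68 to 5.2045, nearly all of it from *Cidec* itself in the excluded mice. *Apoa4*, an apolipoprotein that the fasting and fat-laden liver makes, had 12821 and 19181 against 228 to 849.

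The same direction held for hormone-responsive genes of the fasted liver. *Igfbp1*, the insulin-repressed binding protein for insulin-like growth factors, had 3215 and 1843 against 51.2 to 136 in retained mice. In no BDL mice it ran from 18.6 to 520. *Mfsd2a*, a lysophospholipid transporter raised by fasting, had 223 and 644 against 1.56 to 22.2. *Pdk4*, the kinase that shuts pyruvate dehydrogenase, had 195 and 65.8 against 9.37 to 25.3, and *Fgf21*, the fasting hormone, 15.5 and 28.0 against 1.36 to 12.4. *Tat*, which degrades tyrosine under glucocorticoids, had 3516 and 4813 against 422 to 892. Of 14 measured genes of the gluconeogenesis and fasting list, 10 were higher in miR-Ctrl mouse 3 and 13 in anti-miR-873-5p mouse 2, with 9 in both and 0 lower. The list's median difference was 1.65 and 2.13 (log2), beside medians of -0.01 and -0.03 over all 12972 genes. Of 21 measured genes of fatty acid oxidation, 12 and 11 were higher and 0 lower, with medians of 1.33 and 1.39. Members within the retained range or under 2-fold included *Ppara* itself, which differed by -0.48 and 0.60. Food intake of the mice is not given in the sources used here, and its part in these differences was not tested.

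**Figure D3:**
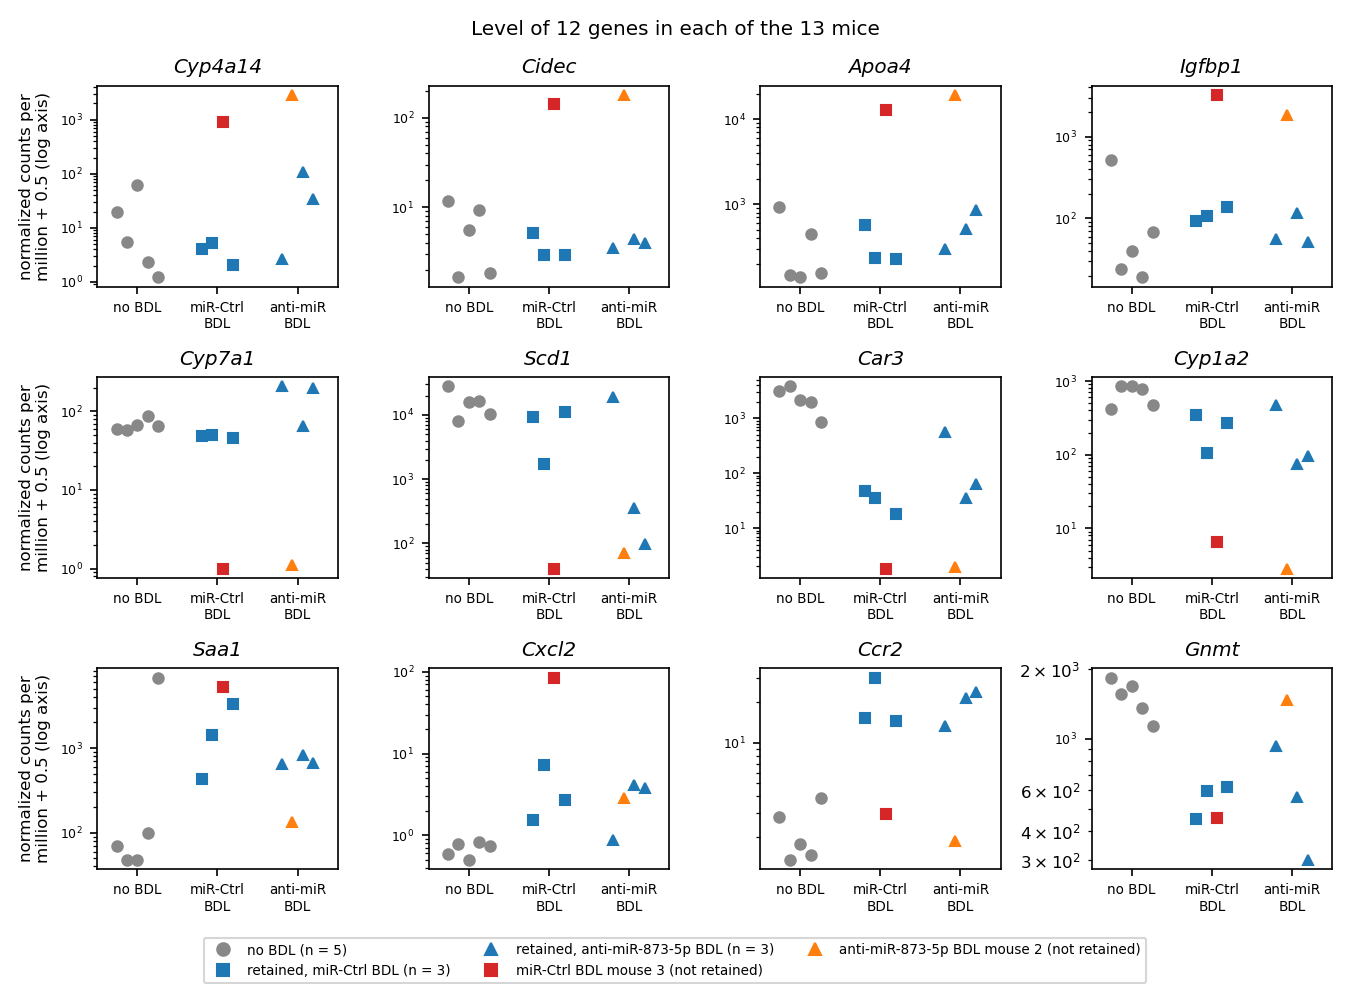
Level of 12 genes in each of the 13 mice as normalized CPM plus 0.5 on log axes, with 1 point per mouse and the 3 study groups side by side. The excluded mice lie above all others for *Cyp4a14*, *Cidec*, *Apoa4* and *Igfbp1* and below all others for *Cyp7a1*, *Scd1*, *Car3* and *Cyp1a2*, while *Saa1*, *Cxcl2* and *Gnmt* differ between them.

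These metabolic lists did not rise with ligation in the retained mice. In an edgeR quasi-likelihood test of the 6 retained mice against 5 no BDL mice, which no excluded mouse entered, 6570 of 13222 genes passed (49.7%), of which 3371 rose (25.5%) and 3199 fell (24.2%). Leaving out the excluded mice was the study's choice on these same values. Counts and adjusted p-values of this test, here and below, are therefore not independent of that choice. Of the fasting list 0 of 14 genes rose and 7 fell, and of the oxidation list 0 of 21 rose and 14 fell, for example *Cyp4a10* by 2.61 (SE 0.68, adjusted p = 0.0082) and *Mfsd2a* by 2.58 on the log2 scale (SE 0.80, adjusted p = 0.02). The level of both genes in the excluded mice was above all no BDL mice as well.

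Amino acid and stress genes were also high in both. *Asns* and *Psat1*, which make asparagine and serine and are targets of the integrated stress response, had 57.1 and 34.2 against 2.76 to 11.1, and 24.0 and 16.3 against 1.56 to 4.88. *Trib3*, a target of the same response, had 34.4 and 39.1 against 3.42 to 9.28. The chaperones of the list did not share this: *Hspa5*, the main chaperone of the endoplasmic reticulum, differed by -0.17 and -1.64 and *Pdia4* by -0.74 and -2.30 (log2). In the whole list of 17 measured genes, miR-Ctrl mouse 3 had 8 higher and 1 lower, and anti-miR-873-5p mouse 2 had 6 higher and 5 lower. The metal-binding *Mt1* and *Mt2*, induced by zinc and glucocorticoids, had 2958 and 1181, and 2675 and 821. The retained mice ranged from 37.9 to 353 for *Mt1* and from 20.1 to 249 for *Mt2*. *Hamp*, the iron hormone hepcidin, had 2025 and 1863 against 295 to 664. *Cebpb*, a transcription factor of the acute phase and of fasting, had 142 and 124 against 40.4 to 59.8, and was the only member of 14 hepatocyte transcription factors outside the retained range by 2-fold in either mouse. *Cdkn1a*, which halts the cell cycle, had 155 and 171 against 30.8 to 66.4, and *Per1*, a clock gene that glucocorticoids induce, 79.3 and 120 against 10.6 to 34.4.

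*Cyp7a1*, the rate-limiting enzyme of bile acid synthesis from cholesterol (GRCm38.p6, chr4:6265612-6275632), was nearly silent in both excluded livers, at 0.497 and 0.604 normalized CPM, or 6 and 8 counts. The retained miR-Ctrl mice had 47.8, 49.5 and 45.3, and the retained anti-miR-873-5p mice 208, 63.9 and 201. The no BDL mice had 59.2, 56.9, 66.1, 87.0 and 65.3. No other liver was below 45.3. The difference from the retained mean was -6.36 and -6.21 (log2) with 0.5 added to each level and -5.07 and -5.00 with 2 added, so at so few counts the size of the fold is set by the added constant. *Akr1c6*, a hydroxysteroid dehydrogenase, had 117 and 48.7 against 386 to 936. Of the 15 bile acid synthesis enzymes, 4 were lower and 1 higher in each mouse, with 3 lower in both. The higher one was *Cyp39a1*, an oxysterol hydroxylase, at differences of 1.89 and 2.07 (log2). *Nr0b2*, the repressor SHP that bile acids induce, was at 18.3 in miR-Ctrl mouse 3, inside the retained 12.5 to 27.1, and at 53.7 in anti-miR-873-5p mouse 2.

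Lipid synthesis and P450 genes were low in part. *Scd1*, which desaturates fatty acids, had 40.2 and 69.6, below all retained mice, but the retained mice themselves spread from 97.4 to 19316, so the 2 values lie close to the lowest retained mouse. Of 13 measured lipogenesis genes 5 were lower in each mouse and 4 in both. *Cyp1a2*, the hepatocyte P450 that metabolizes caffeine, had 6.05 and 2.34 against 73.6 to 468. Of 18 P450 genes of families 1 to 3, 7 were lower in miR-Ctrl mouse 3 and 11 in anti-miR-873-5p mouse 2, where 3 others were higher.

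Male-pattern genes, which depend on pulses of growth hormone, had fallen in the retained mice and many lay lower still in the excluded ones. Of 18 measured genes, 16 fell in retained BDL against no BDL and 0 rose. *Car3*, carbonic anhydrase 3, had 1.33 and 1.43 in the excluded mice, 17.7 to 557 in the retained and 868 to 3816 in the no BDL mice. *Mup20*, a urinary pheromone carrier, had 153 and 245 against 1137 to 7074. Reads of the Mup genes may be split among near-identical copies, so values of a single Mup gene are uncertain. On the list 9 genes were lower in miR-Ctrl mouse 3 and 8 in anti-miR-873-5p mouse 2. Not all of it was low: *Serpina3k* and *Socs2*, an inhibitor of growth hormone signaling, were higher in both. Other hepatocyte genes far below the retained mice were *Serpina6*, the corticosteroid-binding globulin, at 1.66 and 0.981 against 17.6 to 148, and *Keg1*, at 1.24 and 2.42 against 32.3 to 91.6. The ornithine transcarbamylase *Otc*, of the urea cycle, had 28.2 and 48.6 against 128 to 300.4, and complement *C9* 115 and 60.2 against 340.2 to 539.7.

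Several lists that rose after ligation in the retained mice were low in the excluded ones. Of 29 cell cycle genes, 26 rose in retained BDL against no BDL. In the excluded mice 20 and 24 of them lay below the retained range by 2-fold, 19 in both, and 0 above it, with medians of -1.24 and -2.06. *Ccnb2*, a mitotic cyclin, had 0.828 and 0.604 against 4.14 to 14.4 in retained mice and 0.569 to 0.870 in no BDL mice, so the excluded values lay within the no BDL range. *Top2a*, which untangles replicated DNA, had 4.64 in miR-Ctrl mouse 3 and 0.906 in anti-miR-873-5p mouse 2 against 7.04 to 25.8.

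Of 23 interferon-stimulated genes, 17 rose with ligation in retained mice. They were lower in 18 cases in miR-Ctrl mouse 3 and 20 in anti-miR-873-5p mouse 2, 17 of them in both, and 0 were higher. *Oas1a*, an antiviral RNA sensor, had 2.65 and 3.25 against 12.1 to 44.7. *Ifit3* had 1.66 and 6.79 against 12.9 to 65.9, both below the no BDL mice at 14.0 to 20.9. *Cxcl9*, an interferon-γ chemokine, had 6.88 and 0.755 against 7.57 to 50.2.

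Monocyte, collagen and glutathione genes gave a mixed picture. *Ccr2*, the receptor that brings monocytes into tissue, had 2.49 and 1.36 against 12.8 to 30.0 in retained and 0.854 to 3.40 in no BDL mice. *Spp1*, osteopontin of ductules and macrophages, had 401 and 194 against 1070 to 1648. *Col3a1*, a fibrillar collagen, had 60.8 and 29.1 against 127 to 337, and *Col1a1* 64.9 and 30.0 against 78.2 to 207; no BDL mice were at 3.23 to 11.1 for *Col1a1*, so both excluded livers were still above them. Of 22 fibrogenesis genes, 21 rose with ligation in the retained mice. In the excluded mice 7 and 9 were lower, 5 in both, while 4 and 1 were higher. The 22 genes summed to 1330 and 409 against 590 to 1269 in the retained mice. Of 19 macrophage genes 5 and 9 were lower and 2 and 1 higher, and the 19 summed to 2305 and 881 against 1757 to 3862. By sum, neither list was low in miR-Ctrl mouse 3, and both were low in anti-miR-873-5p mouse 2. Sums follow the most abundant genes. Median differences of the fibrogenesis genes were alike in the 2 mice, at -0.84 and -0.90 (log2). Without the 2-fold limit, 13 and 14 of the 22 lay below the retained range and 5 and 1 above it. The macrophage medians were -0.46 and -1.29. Of 19 genes of the NRF2 and glutathione list, 10 and 9 were lower and 3 and 2 higher, the 2 in both mice being *Mt1* and *Mt2*. The lower genes included *Gstm3* at 134 and 206 against 463 to 4687 and *Gsta1* at 10.4 and 28.7 against 30.0 to 427. Reads of these transferases may be shared with close paralogs.

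Markers of several other cell types were lower too, but not of all. Of 10 measured mesothelial and portal fibroblast genes 3 and 2 were higher and 2 and 2 lower, with medians of 0.75 and 0.54 (log2). Neutrophil genes, given below, were higher in miR-Ctrl mouse 3. Of 12 endothelial genes 8 were lower in miR-Ctrl mouse 3. In anti-miR-873-5p mouse 2, 7 were lower and 1 higher. *Kdr* was at 0.497 and 2.72 against 5.33 to 12.6. *Clec4g*, of sinusoidal endothelium, was at 3.40 and 7.02 against 18.8 to 36.3. The summed level of the endothelial list was 113 and 168 against 206 to 367. Of 5 measured red cell genes 4 were lower in both mice, *Hbb-bs* at 30.2 and 27.5 against 88.6 to 384. Of 10 listed red cell genes, 7 had usable counts, and *Hbb-bt* and *Hba-a1* were not among them. The summed level of the 7 was 157 and 154 against 360.0 to 1364. Hemoglobin genes are near-identical copies, and their single values are uncertain. Of 8 measured T and NK cell genes 3 and 6 were lower. The 14 of 16 listed genes with usable counts summed to 5.80 and 4.38 against 8.95 to 28.3. The part of blood content and cell composition in the differences was not tested. Of 19 measured ductular genes, 3 and 7 were lower, and in anti-miR-873-5p mouse 2 a total of 13 lay below the retained range when the 2-fold limit was dropped. The 20 listed summed to 759 and 463 against 1389.7 to 2013, and to 187 to 289 in no BDL mice. *Spp1* was the source of 401 and 194 of the sum and of most of each retained sum, so the sums largely follow that gene. The mean log2 level of the 19 measured genes was 3.64 in miR-Ctrl mouse 3, inside the retained 3.33 to 4.49. In anti-miR-873-5p mouse 2 it was 3.19, below all retained mice. *Mmp7*, a matrilysin of the injured duct, was the 1 member higher in both, at 33.5 and 32.3 against 1.18 to 19.7. *Krt19*, the keratin of cholangiocytes, had 11.8 and 12.9 and lay inside the retained 7.15 to 18.8, well above the no BDL mice at 0.475 to 1.81.

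**Figure D4:**
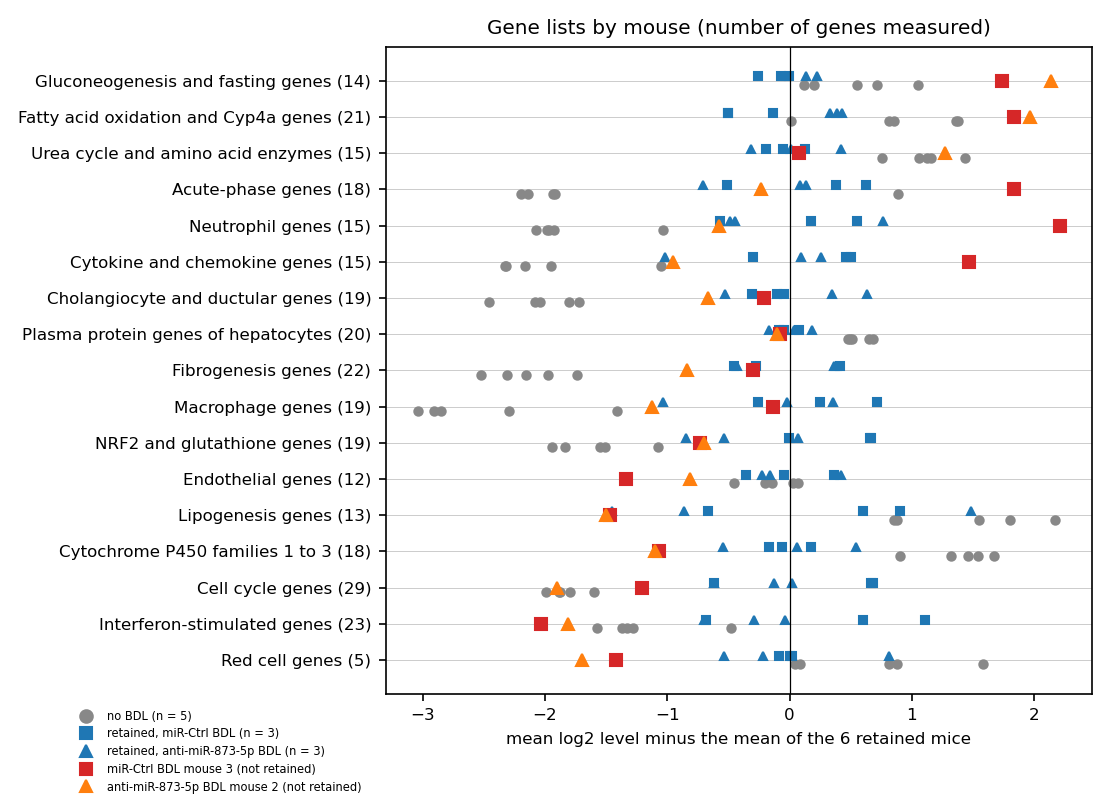
Mean log2 level of the measured genes of 17 lists in each mouse, set to 0 at the mean of the 6 retained mice, with 1 point per mouse and the number of genes in parentheses. Both excluded mice lie above the retained mice for the 14 fasting genes and below them for the 29 cell cycle genes, 23 interferon-stimulated genes and 5 red cell genes, and they part for the 18 acute-phase and 15 neutrophil genes.

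The excluded mice differed from each other in inflammation. Of 18 acute-phase genes, 17 were higher in miR-Ctrl mouse 3 and 0 lower, and the median difference was 1.58. The counts were 1 and 4 in anti-miR-873-5p mouse 2, where the median was 0.10 and turned to -0.12 when libraries were scaled by size alone. *Saa1*, serum amyloid A, had 5276 in miR-Ctrl mouse 3 and 135 in anti-miR-873-5p mouse 2, above and below the retained 435 to 3275. *Saa2*, nearly identical in sequence and thus uncertain as a separate value, had 4886 and 97.7 against 366 to 2949. *Steap4*, a metalloreductase of inflamed tissue, had 1858 and 191 against 340 to 971. A no BDL mouse, mouse 5, had 6788 of *Saa1* while the other 4 had 47.5 to 97.8, so a high level was not limited to ligated mice. *Saa3* had 571 in miR-Ctrl mouse 3, and 30.7 in anti-miR-873-5p mouse 2, inside the retained 13.7 to 74.2.

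Neutrophil and cytokine genes followed the same split. Of 15 measured neutrophil genes, 11 were higher in miR-Ctrl mouse 3 and 0 lower, against 1 and 3 in the other mouse. *S100a8* and *S100a9*, the calprotectin subunits of neutrophils, had 75.9 and 102 in miR-Ctrl mouse 3 against at most 18.7 and 29.2 in the retained mice, and 3.17 and 3.85 in anti-miR-873-5p mouse 2. *Cxcl2*, which attracts neutrophils, had 84.7 and 2.34 against 0.373 to 6.69. *Ccl3*, a macrophage chemokine, had 27.7 and 0.453 against 0.186 to 1.07, and *Il1rn*, the interleukin-1 receptor antagonist, 459 and 26.3 against 9.95 to 37.6. *Tnf* had 7.12 and 0.226 against 0.870 to 2.51. *Nos2*, inducible nitric oxide synthase, had 21.7 and 0.528 against 0.186 to 4.62, and *Hcar2*, a receptor of ketone bodies on leukocytes, 18.1 and 0.226 against 1.03 to 5.73. Of 15 cytokine and chemokine genes miR-Ctrl mouse 3 had 7 higher and 2 lower, and anti-miR-873-5p mouse 2 had 0 higher and 5 lower. Each mouse is 1 animal of its treatment, so a difference between them cannot be told apart from the treatments.

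In anti-miR-873-5p mouse 2, genes of amino acid breakdown were higher than in retained mice. Of 15 measured urea cycle and amino acid enzymes, of which 14 fell in retained BDL against no BDL, 10 were higher in this mouse and 1 lower. In miR-Ctrl mouse 3, 3 were higher and 3 lower. *Got1*, the cytosolic aspartate aminotransferase, had 377 in miR-Ctrl mouse 3 and 909.7 in anti-miR-873-5p mouse 2 against 99.1 to 142, and *Sds*, serine dehydratase, 309 and 695 against 74.96 to 153. *Nr1i3*, the xenobiotic receptor CAR, had 258 in anti-miR-873-5p mouse 2 and 77.7 in miR-Ctrl mouse 3 against 51.2 to 96.1. *H19*, an imprinted fetal transcript, had 21.5 and 1.41 against 1.06 to 7.13, and *Ciart*, a clock repressor, 22.0 and 4.14 against 1.02 to 4.83. The plasma retinol carrier *Rbp4* had 4453 in anti-miR-873-5p mouse 2 against 1145 to 1663. In the other direction, complement *C8a* was at 116 against 608 to 794, the water channel *Aqp8* at 5.74 against 49.0 to 322, and the heat shock gene *Hspa1a* at 2.57 against 12.9 to 25.1; the values in miR-Ctrl mouse 3 were 508, 25.02 and 15.4.

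*Gnmt* (GRCm38.p6, chr17:46725664-46729211), the gene the study followed, separated the 2 mice too. The no BDL mice had 1838, 1566, 1687, 1351 and 1131 normalized CPM. The retained miR-Ctrl mice had 449.98, 595 and 619, and miR-Ctrl mouse 3 had 455, so it did not stand out. The retained anti-miR-873-5p mice had 931, 559 and 300.2, and anti-miR-873-5p mouse 2 had 1464, the highest of all ligated mice and inside the no BDL range. *Ahcy*, which hydrolyzes S-adenosylhomocysteine, had 1613 in miR-Ctrl mouse 3 and 3618 in anti-miR-873-5p mouse 2 against 487 to 763 in retained and 1322 to 2536 in no BDL mice. *Cth*, of transsulfuration, had 309.8 and 829.6 against 156 to 316. Of 15 measured genes of the methionine cycle, miR-Ctrl mouse 3 had 2 higher and 1 lower, and anti-miR-873-5p mouse 2 had 4 higher and 1 lower. Over all genes the shares were 4.86% higher and 9.94% lower in the first mouse, and 4.53% and 10.8% in the second. The 1 lower gene of 15 was under the share over all genes in both mice.

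Among 25 measured genes that the study itself followed in ligated livers, 6 were higher and 0 lower in miR-Ctrl mouse 3, while anti-miR-873-5p mouse 2 had 4 higher and 8 lower. Counts over this list are given as a description and not as independent evidence of a direction. The lower genes included the macrophage marker *Adgre1* at 10.6 against 19.7 to 63.8, *Epcam* at 4.30 against 6.92 to 20.2, *Tgfb1* at 5.28 against 10.6 to 23.1, *Acta2* of activated stellate cells at 4.53 against 7.46 to 14.2, the methyltransferase *Dnmt1* at 8.45 against 18.5 to 26.5, and the bile salt export pump *Abcb11* at 165 against 262 to 513. In miR-Ctrl mouse 3 the first 4 were at 30.7, 7.87, 10.02 and 5.38. *Mmp9*, at 7.79 and 1.74 against 1.93 to 5.27, and *Rassf1*, at 37.4 and 17.3 against 8.33 to 15.5, were higher in miR-Ctrl mouse 3. *Ccl2*, at 11.8 and 6.64, and the bile acid receptor *Nr1h4*, at 57.5 and 69.7, were inside the retained range in both mice.

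A position between no BDL and retained BDL was computed for each mouse over the genes that changed at least 2-fold with ligation in the test without the excluded mice. It is the median over genes of the distance travelled from the no BDL mean, 0%, to the retained mean, 100%, and each retained or no BDL mouse was placed with itself left out of both the test and the means. Over 2541 genes miR-Ctrl mouse 3 was at 71.8% and anti-miR-873-5p mouse 2 at 51.3%. Of the retained mice, 5 lay between 94.5% and 116%, but anti-miR-873-5p mouse 1 was at 61.0%, below miR-Ctrl mouse 3. The no BDL mice lay between -14.6% and 1.11%, except no BDL mouse 5 at 33.9%.

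The position depended on the direction of the response. For 1990 genes that rise with ligation, the excluded mice reached 61.8% and 42.9%, below all 6 retained mice at 63.8% to 120%. For 551 genes that fall, they reached 116% and 95.6%, and the retained mice 52.8% to 110.4%. By median, both excluded mice were thus short of all retained mice in the genes that rise. In the genes that fall, miR-Ctrl mouse 3 was beyond all retained mice. There anti-miR-873-5p mouse 2 was above retained anti-miR-873-5p mouse 1 alone, and the other retained mice were at 100.7% to 110.4%. Retained anti-miR-873-5p mouse 1 was low in both, at 63.8% and 52.8%. Of 1993 rising genes tested, miR-Ctrl mouse 3 lay within the no BDL range and below all retained mice for 484 (24.3%) and beyond the highest retained mouse for 292 (14.7%). The counts in anti-miR-873-5p mouse 2 were 708 (35.5%) and 156 (7.83%). Of 551 falling genes, miR-Ctrl mouse 3 lay within the no BDL range and above all retained mice for 53 (9.62%). It lay beyond the lowest retained mouse for 205 (37.2%). In anti-miR-873-5p mouse 2 these counts were 97 (17.6%) and 176 (31.9%).

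**Figure D5:**
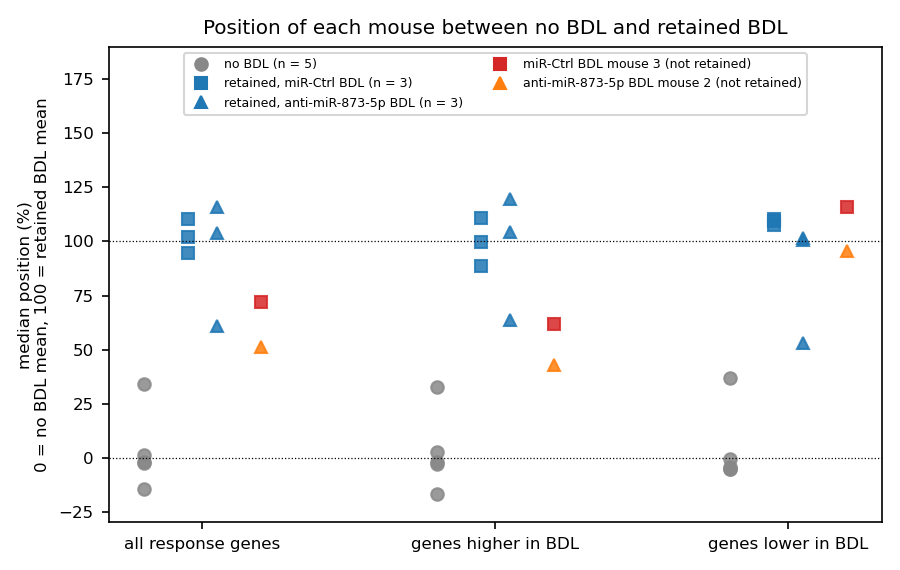
Median position of each mouse in percent, where 0 is the no BDL mean and 100 the retained BDL mean, over response genes, with 1 point per mouse. The excluded mice were placed on 2541 genes, 1990 higher and 551 lower in BDL, and each other mouse on the 2331 to 2819 genes of the test without it. The excluded mice, at 61.8% and 42.9%, lie below all retained mice for genes that rise, and at 116% and 95.6% among or above them for genes that fall.

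Fits that held the excluded mice had a wider spread and called fewer genes. The study left these mice out for standing apart in the same values, so a narrower spread without them follows in part from that choice. Counts of genes from fits without them are therefore given as a description. In miR-Ctrl BDL against no BDL, with all 4 miR-Ctrl mice, 4666 of 13072 genes passed (35.7%; 19.1% higher and 16.6% lower; edgeR, adjusted p under 0.05), and 5710 of 13509 without mouse 3. The biological coefficient of variation was 0.270 with and 0.216 without that mouse. When the 4 ligated mice given anti-miR-873-5p were set against no BDL, 2823 of 13130 genes passed (21.5%; 13.1% higher and 8.44% lower) with mouse 2, and 4317 of 13597 without it, at 0.281 and 0.236. The pairs of fits share all other mice; 4398 and 2670 genes passed in both fits of a pair, in the same direction. Leaving out another miR-Ctrl mouse gave 3834 to 3872 genes. Among the anti-miR-873-5p mice, the fit without mouse 1 called 3237 genes, that without mouse 3 called 1261 and that without mouse 4 called 1392. When all 8 ligated mice were set against no BDL, 4963 genes passed, in place of 6570 with the 6 retained mice.

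Calls on several genes the study followed differed with and without these mice. Adjusted p-values from fits without them come after the study's choice on the same values and are not independent of it. Between mice ligated under anti-miR-873-5p and no BDL mice, *Gnmt* differed by -0.88 (log2) with mouse 2 in the fit (SE 0.39, adjusted p = 0.135, edgeR) and fell by 1.32 without it (SE 0.34, adjusted p = 0.0196, edgeR), so it passed only without that mouse. In miR-Ctrl BDL it fell by 1.49 (SE 0.19, adjusted p = 0.000546, edgeR) with mouse 3 and by 1.43 without it. *Ahcy* in anti-miR-873-5p BDL differed by -0.37 with mouse 2 (adjusted p = 0.633, edgeR) and by -1.35 without it (adjusted p = 0.00313, edgeR). *Dnmt1*, *Tgfb1* and *Acta2* in the same comparison had adjusted p of 0.0667, 0.107 and 0.0621 (edgeR) with mouse 2 and passed without it, with log2 fold changes of 0.87, 1.15 and 1.42.

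*Cyp7a1* passed in neither comparison with the excluded mouse in the fit, at log2 fold changes of -0.86 (SE 0.73) in miR-Ctrl BDL and 0.86 (SE 0.90) in anti-miR-873-5p BDL. Without it, *Cyp7a1* fell by 0.47 in miR-Ctrl BDL (SE 0.14, adjusted p = 0.0246, edgeR) and rose by 1.26 in anti-miR-873-5p BDL (SE 0.33, adjusted p = 0.0191, edgeR). *Cyp4a10* differed by -0.33 (SE 1.26) with miR-Ctrl mouse 3 and fell by 3.96 without it (SE 0.91, adjusted p = 0.0072, edgeR). *Pdk4* went the other way: it rose by 2.95 with miR-Ctrl mouse 3 (SE 0.88, adjusted p = 0.0262, edgeR), and its difference of 1.12 without that mouse did not pass (adjusted p = 0.0982, edgeR).

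Between the ligated groups no gene passed in edgeR, with or without the excluded mice. In the test of anti-miR-873-5p against miR-Ctrl, 0 of 13746 genes passed in the 3 against 3 retained mice (0%; edgeR), 863 had an unadjusted p under 0.05 and DESeq2's Wald test called 29. With all 8 ligated mice 0 of 12906 passed in edgeR and 502 had an unadjusted p under 0.05, while the biological coefficient of variation rose from 0.213 to 0.327. DESeq2, the study's own tool for differential expression, was not run with all 8. *Gnmt* differed by 0.10 (SE 0.38) in the retained mice and by 0.63 (SE 0.44) with all 8, with adjusted p of 0.97 and 0.981 (edgeR). *Cyp4a14* differed by 3.85 (SE 1.19) in the retained mice, by 7.84 (SE 2.4996) when anti-miR-873-5p mouse 2 was added and by -2.26 (SE 2.26) when miR-Ctrl mouse 3 was added, and its adjusted p was 0.757, 0.848 and 0.904 (edgeR).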

How the data were processed

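RNA of 13 mouse livers was sequenced by the authors from unstranded TruSeq v2 libraries as single reads of 50 nt, which were mapped with TopHat to mm10. The authors deposited raw counts per Entrez gene in 3 tables, 1 per comparison; the counting program is not given in the sources used here. All values proved to be integers, and 0 columns of values were left out. Depth per mouse was 12185333 to 19689037 counts, and intervals beyond the spread between mice were not computed.

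The tables against no BDL were joined on the 22353 of 23019 shared Entrez ids whose no BDL counts were identical in both. The other 666 ids, *Mat1a* among them, were not used, nor are they among the listed genes called measured. For 107 joined ids, retained miR-Ctrl counts differ between tables. The joined ids held 92.1% to 94.0% of each mouse's counts. Levels are CPM of TMM-scaled libraries of the joined table. Genes averaging 10 counts or more over 8 ligated mice were described, on log2(level + 0.5). Groups were tested in R 4.3.3 with edgeR 4.0.16 (filterByExpr, TMM, quasi-likelihood, Benjamini-Hochberg, 0.05), and DESeq2 1.42.0 as alternative. The edgeR code was tested on simulated data. Named genes were the farthest from the retained mean in each mouse and in both (mean of at least 50 counts), up to 4 per list and the genes the study followed; *Cyp39a1*, *Hspa5*, *Pdia4*, *Serpina3k*, *Socs2* and genes that mark other tissues were named after their values were seen. Mice, 38 lists and rules were chosen with earlier results of these data known. Nothing says that the mice were littermates or batches, and p-values measure the spread between these mice. Same-numbered mice correlated at -0.38 to 0.56 in their deviations from group means, 2 of 12 pairs over 0.1, so numbers were not used as pairs. Results for some genes are not reported here.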

Additional observations from a re-analysis of the deposited data

Results flagged for a closer look

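In each group of 4 or 5 mice, the highest or lowest mouse was marked when its gap to the next mouse, divided by the range of the group, passed Dixon's 95% critical value for a group of that size, on log2 levels. Of 271 tests over 87 named genes and 4 measures of whole libraries, 41 passed, 28 of them on the excluded mice. Chance marks about 1 in 20 groups, but that rate cannot be set against the 28: these mice were left out by the study for standing apart in the same data, and some genes were named for their distance in them. The 28 values restate that choice and are a description of where the mice lie, not a test.

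In the miR-Ctrl BDL group, mouse 3 stood apart as the highest for *Cyp4a14* (0.846), *Cidec* (0.854), *Igfbp1* (0.89), *Fgf21* (0.868), *Trib3* (0.931), *Psat1* (0.92), *Ccl3* (0.838) and the second component (0.899). It was the lowest for *Cyp7a1* (0.978), *Mup1* (0.848), *Keg1* (0.886), *Kdr* (0.865), *Otc* (0.918) and *C9* (0.933).

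In the anti-miR-873-5p BDL group, mouse 2 was the highest for *Cidec* (0.938), *Got1* (0.839), *Sds* (0.874), *Ahcy* (0.929), *Rbp4* (0.949), *Serpina3k* (0.841) and the second component (0.901). It was the lowest for *Mup20* (0.89), *Spp1* (0.858), *Col3a1* (0.84), *Saa1* (0.853), *Saa2* (0.838), *C8a* (0.934) and *Dnmt1* (0.882).

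Other mice also stood apart from their groups. No BDL mouse 5 was the highest for *Saa1* (0.855), *Saa2* (0.884), *Saa3* (0.849), *S100a8* (0.872), *Hcar2* (0.723), *Cxcl9* (0.719) and the first component (0.725), and the lowest for *Rbp4* (0.711). No BDL mouse 4 was the highest for *Hspa1a* (0.787). No BDL mouse 3 was the lowest for *Mup20* (0.781) and for the total of joined counts (0.743). Anti-miR-873-5p mouse 1, which was retained, was the lowest for *Il1rn* (0.975), and the retained mouse 4 of that group the highest for *Mmp9* (0.867).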

How the results depend on the processing

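Of the counts and positions under alternative settings, 164 stayed within 1.5 times the reported count or 1 SD of the retained mice and 36 did not. Scaling by library size alone moved the median of all genes to -0.27 in miR-Ctrl mouse 3 and -0.23 in anti-miR-873-5p mouse 2, and higher genes fell from 32.8% to 18.0% and from 29.6% to 16.8% of those outside. It gave 1958 genes lower in miR-Ctrl mouse 3, 158 higher and 1187 lower in both, and 3 of the *Izumo4* kind. The tests against no BDL then called 11049 genes for retained BDL, 9635 for miR-Ctrl and 10194 for anti-miR-873-5p, 97.7%, 97.1% and 98.7% of them higher, with median shifts of 0.83, 0.79 and 0.82 (log2). A pseudocount of 2 gave 671 and 802 lower genes, 402 in both, 6 higher in miR-Ctrl mouse 3 and lower in the other, and 0 of the reverse. A mean of at least 50 counts left 9 such genes, and retained mice of the same treatment as reference gave 3 of the reverse. At 3-fold, 268 were higher and 452 lower in miR-Ctrl mouse 3, 198 and 524 in anti-miR-873-5p mouse 2, 97 and 235 in both, and 4 and 0 in opposite directions. Positions over genes that fall with ligation were 116 and 95.6%. DESeq2's Wald test called 29 genes between the ligated groups. The cause of these shifts was not tested beyond the setting itself. 

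Leaving out 1 retained mouse gave 14 to 23 genes higher in miR-Ctrl mouse 3 and lower in the other, most without anti-miR-873-5p mouse 1, and 0 to 2 of the reverse. The anti-miR-873-5p test against no BDL called 1261 to 4317 genes with 1 mouse left out: 1261 without its mouse 3, 1392 without mouse 4, 1713 to 1824 without no BDL mouse 1, 2, 3 or 4, and 4317 without mouse 2. Between the ligated groups 0 to 1 passed, the 1 without anti-miR-873-5p mouse 3. With mouse number as a replicate block, 6491 genes passed for retained BDL, 4063 for miR-Ctrl and 2195 for anti-miR-873-5p against no BDL, and 0 between the ligated groups; the numbers pair no animals. On the joined table, a setting chosen after seeing the data, 0 passed between the ligated groups. Of 870 differences of the named genes in miR-Ctrl mouse 3 under other settings, 852 moved by under 1 SD of the retained mice and 0 outside the retained range reversed, and of 870 in anti-miR-873-5p mouse 2, 857 and 0. Depth limits genes near 10 counts, such as *Cyp7a1* in the excluded mice.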
